A study of Mus musculus with 10 samples.

Results

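Of the 13920 genes in the deposited table, 8 are described here: the uroplakin genes Upk1a, Upk1b, Upk2, Upk3a and Upk3b, the prostate stem cell antigen gene Psca, and the small proline-rich genes Sprr1a and Sprr2f. Which cells made their RNA was not tested. The 8 were taken by gene name as genes known from the urothelium, the epithelium that lines the renal pelvis, ureter and bladder. Because a kidney sample can hold more or less of that lining, the value in every library is shown. RNA of whole left kidneys of C57BL/6 mice was sequenced, with 5 libraries labelled sham UUO surgery and 5 labelled UUO (unilateral ureteral obstruction, the closing of 1 ureter). The treatment label of both groups reads None, and the labels give neither age, sex nor the time between surgery and collection. The labels do not say whether each library is a different mouse, so a p-value here refers to the spread among the libraries, which may be technical.

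Uroplakins are membrane proteins that umbrella cells, the surface layer of the urothelium, pack into stiff plaques that keep urine out of the tissue. Upk1a and Upk1b are tetraspanins that each pair with a single-pass partner: Upk1a with Upk2, and Upk1b with Upk3a or its relative Upk3b. Small proline-rich proteins are cross-linked into the tough envelope of stratified epithelia such as skin. Psca is a small protein of the Ly6 family that a lipid anchor holds on the cell surface, known from prostate and bladder epithelium. Upk3b and Upk1b are also known from mesothelium, the cell layer that covers organs.

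A RefSeq table of promoters, each 250 bases before to 50 after the start of a gene in GRCm38.p6, held 5 of the 8 genes, namely Upk1a, Upk3a, Upk3b, Sprr1a and Sprr2f. The 2 small proline-rich promoters and 1 promoter of each plaque pair are shown, because these genes were higher in UUO while their promoters differ in the letters they hold. All motifs were searched on both strands, and capitals mark matches to the AP-1 site TGANTCA and to the octamer ATTTGCAT.
Upk1a, chr7:30612685-30612984, minus strand: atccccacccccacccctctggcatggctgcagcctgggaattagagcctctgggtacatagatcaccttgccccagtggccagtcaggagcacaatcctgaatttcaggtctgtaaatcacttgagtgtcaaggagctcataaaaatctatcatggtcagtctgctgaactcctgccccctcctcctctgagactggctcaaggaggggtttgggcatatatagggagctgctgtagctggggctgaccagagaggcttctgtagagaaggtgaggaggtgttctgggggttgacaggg
Upk3a, chr15:85016891-85017190, plus strand: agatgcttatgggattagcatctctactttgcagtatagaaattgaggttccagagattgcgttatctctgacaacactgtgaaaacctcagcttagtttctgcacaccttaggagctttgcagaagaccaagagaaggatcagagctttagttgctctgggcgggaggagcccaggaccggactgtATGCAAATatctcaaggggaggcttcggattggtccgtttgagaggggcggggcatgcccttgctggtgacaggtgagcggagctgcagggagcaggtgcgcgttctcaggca
Sprr1a, chr3:92485832-92486131, minus strand: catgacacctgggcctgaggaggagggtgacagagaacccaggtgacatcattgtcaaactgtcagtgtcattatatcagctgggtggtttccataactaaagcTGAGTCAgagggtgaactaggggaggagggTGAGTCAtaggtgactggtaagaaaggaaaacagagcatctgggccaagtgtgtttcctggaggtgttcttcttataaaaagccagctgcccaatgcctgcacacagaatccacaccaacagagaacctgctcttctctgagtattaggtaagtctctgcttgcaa
Sprr2f, chr3:92364937-92365236, plus strand: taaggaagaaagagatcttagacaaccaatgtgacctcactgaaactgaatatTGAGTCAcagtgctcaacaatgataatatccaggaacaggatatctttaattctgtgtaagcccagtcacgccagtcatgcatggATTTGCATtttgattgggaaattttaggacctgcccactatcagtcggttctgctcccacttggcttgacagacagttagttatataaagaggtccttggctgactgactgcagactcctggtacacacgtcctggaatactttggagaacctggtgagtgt

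The Sprr1a promoter held 2 AP-1 matches, which began 146 and 116 bases before the start of the gene, and the Sprr2f promoter held 1 at 197 bases. Of 32851 promoters of the same length, 7.81% held at least 1 such match. The octamer stood 112 bases before the start of Sprr2f and, on the other strand, 63 bases before that of Upk3a, and 1.74% of promoters held it. A TATA motif (TATAAA, in 13.6% of promoters) began 43 bases before Sprr1a and 29 bases before Sprr2f. A GATA motif (AGATAA, in 11.2%) lay 188 bases before Upk3a. The ETS motif CCGGAA, in 14.9% of promoters, was in none of the 5, and the Upk1a and Upk3b promoters held none of the 5 motifs searched. These matches did not overlap one another. They are letters in a window and not shown sites of binding.

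Levels are in FPKM, the fragments of a gene scaled by its length and by the size of the library, and the number of reads behind a value is unknown. The FPKM of a library summed to 327994 to 343018 in sham and 282172 to 302519 in UUO. Proximal tubule markers, which mark the bulk of a kidney, summed to 2072 to 3120 FPKM in sham and 177 to 1405 in UUO. All 10 tested were called lower in UUO, beside 16.1% of all genes. The library labelled Sham 4 stood apart from the other sham libraries in genes other than the 8. Its summed inner medulla markers were 4.04 times, its principal cell markers 2.61 times and its adipocyte markers 25.9 times the mean of the other 4, while its proximal tubule markers were 0.689 times that mean. The summed uroplakins of Sham 4 were 7.55 times and its Psca 29.5 times the mean of the other 4. The part of these differences in its urothelial values was not tested, and results are given with and without this library. In bulk tissue, fewer cells of a type and less RNA per cell cannot be told apart.

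All 8 genes were listed higher on average in UUO than in sham, and 7 of the 8 were called higher (limma fit of log2(FPKM + 1), with p-values adjusted by Benjamini-Hochberg over the 13202 genes tested and calls below 0.05). Among all genes tested 58.5% were called higher and 16.1% lower, so a call alone does not set these genes apart. Sprr2f passed the filter on low values only through its UUO libraries, so its direction was fixed. Without Sham 4 all 8 were called, against 60.7% of all genes, though Upk3b then reached the filter in its UUO libraries alone. With median-of-ratios scaling and with quantile normalization 7 of the 8 were called, against 34.8% and 29.6% of all genes. After rescaling to equal sums all 8 were called, against 67.2%. On the log2 scale the median difference was 0.40 over all genes tested and 2.71 over the 8 genes (3.45 without Sham 4). In 2 of the 8 genes, Sprr1a and Sprr2f, every UUO library stood above every sham library, as in 47.5% of all genes tested. In 7 of the 8, all but Upk3a, every UUO library stood above the 4 sham libraries other than Sham 4. The share of all genes that did so was not counted. That share cannot be below 47.5%, and without it this count cannot say whether the 8 genes stand apart.

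**Figure D1:**
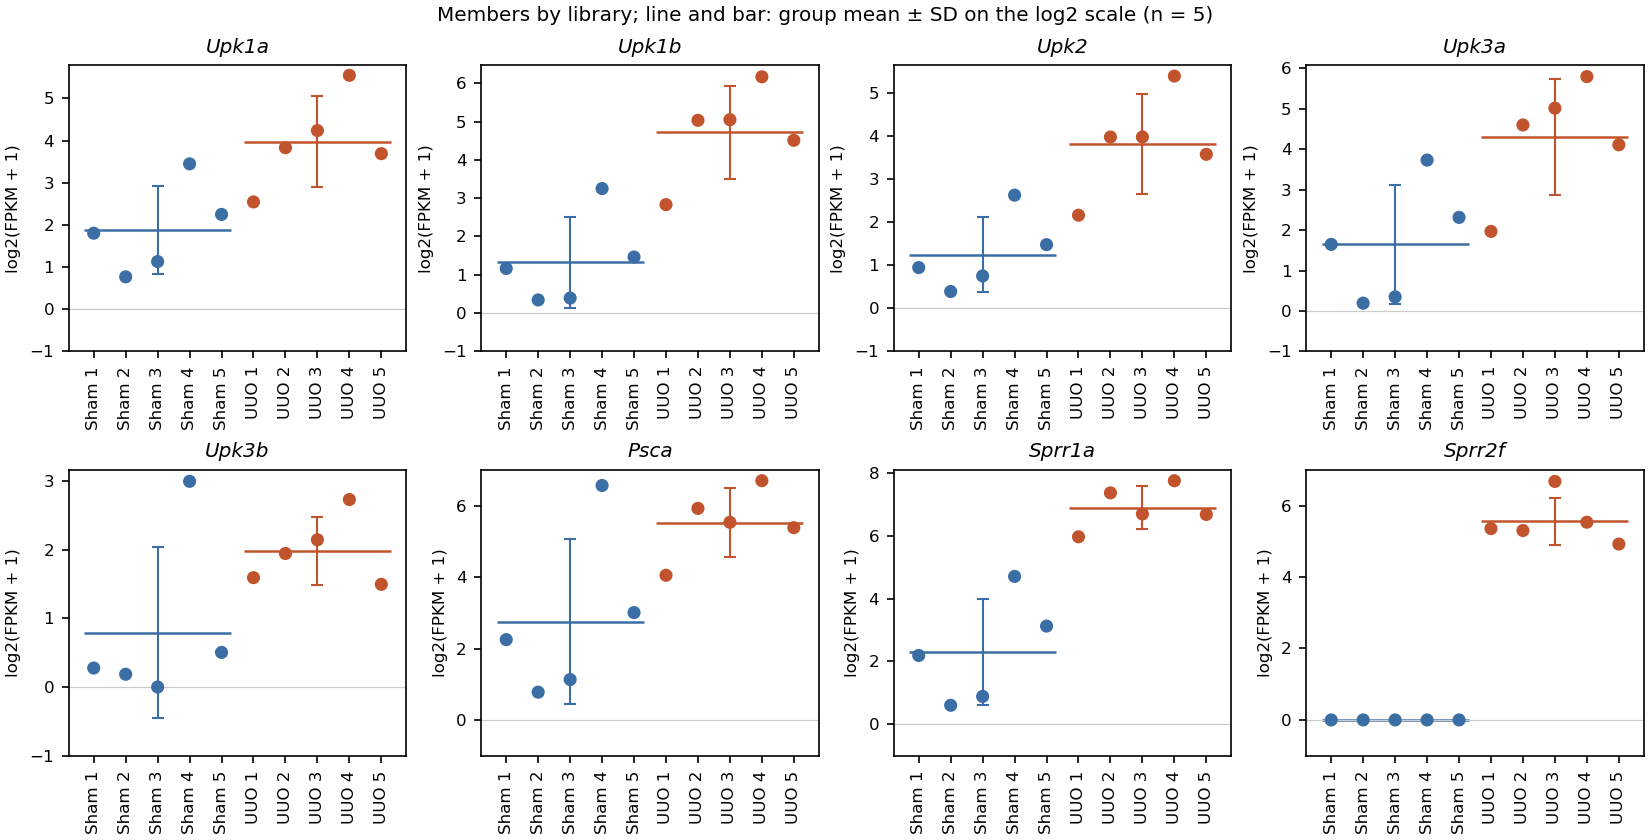
Level of each of the 8 genes in each library, as log2(FPKM + 1), with 5 sham libraries in blue and 5 UUO libraries in orange; lines and bars give the group mean ± SD on that scale. Sham 4 is the highest sham library in every panel except Sprr2f, which is listed at 0 in all 5 sham libraries, and UUO 4 is the highest UUO library in all but Sprr2f, where UUO 3 is.

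Upk1a (chromosome 7, 30603092 to 30612847, minus strand, GRCm38, as all coordinates of genes here) encodes the tetraspanin that pairs with Upk2. From Sham 1 to Sham 5 it stood at 2.49, 0.703, 1.19, 9.90 and 3.75 FPKM, and from UUO 1 to UUO 5 at 4.83, 13.2, 17.8, 45.7 and 11.9. UUO 1, the lowest UUO library, lay below Sham 4 and above the other sham libraries, and the other 4 UUO libraries lay above all 5. The mean rose from 3.61 ± 3.71 to 18.7 ± 15.8 FPKM (SD, n = 5 each), or by 2.09 ± 0.58 on the log2 scale (SE; limma, adjusted p = 0.00732). The ratio of means was 5.18, and it was 9.20 without Sham 4 and 3.31 without UUO 4. Of the 4 plaque uroplakins this gene had the smallest log2 difference.

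Upk2 (chromosome 9, 44452715 to 44454976, minus strand) encodes the single-pass partner of Upk1a. Its sham values were 0.931, 0.313, 0.687, 5.20 and 1.79 FPKM and its UUO values 3.49, 14.8, 14.8, 41.3 and 10.99, in the order of the library numbers. The libraries overlapped in the same place, with UUO 1 below Sham 4 only. Upk2 rose from 1.79 ± 1.99 to 17.1 ± 14.3 FPKM (n = 5 each), or by 2.58 ± 0.56 on the log2 scale (SE; limma, adjusted p = 0.00161). The means stood in a ratio of 9.57, which was 18.4 without Sham 4 and 6.18 without UUO 4.

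Upk1b (chromosome 16, 38773184 to 38800203, minus strand), the tetraspanin that pairs with Upk3a, had the largest difference of the uroplakins. It stood at 1.24, 0.269, 0.313, 8.52 and 1.76 FPKM in Sham 1 to Sham 5 and at 6.12, 31.7, 32.1, 70.9 and 21.8 in UUO 1 to UUO 5. Here too UUO 1 lay below Sham 4 alone, and the other UUO libraries lay above every sham library. The mean rose from 2.42 ± 3.47 to 32.5 ± 23.9 FPKM (n = 5 each), or by 3.39 ± 0.66 on the log2 scale (SE; limma, adjusted p = 0.000734). The ratio of means of 13.4 became 36.3 without Sham 4.

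Upk3a (chromosome 15, 85017141 to 85022560, plus strand) encodes the plaque protein with the longest tail inside the cell. Its level was 2.13, 0.143, 0.274, 12.3 and 3.97 FPKM in the sham libraries and 2.91, 23.2, 31.3, 54.5 and 16.2 in the UUO libraries. UUO 1 lay below both Sham 4 and Sham 5, so that 4 of 5 UUO libraries were above every sham library. Upk3a rose from 3.76 ± 5.01 to 25.6 ± 19.2 FPKM (n = 5 each), or by 2.65 ± 0.80 on the log2 scale (SE; limma, adjusted p = 0.0108). Its ratio of means was 6.82, or 15.7 without Sham 4. For Upk1a, Upk1b, Upk2 and Upk3a the libraries had the same order within each group: Sham 4, 5, 1, 3 and 2 from high to low, and UUO 4, 3, 2, 5 and 1. Libraries are the same for all 4 genes, so the shared order is 1 description of 10 libraries and not 4 separate ones.

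Upk3b (chromosome 5, 136038496 to 136046487, plus strand), the relative of Upk3a, had another pattern across the sham libraries than the 4 plaque uroplakins. It stood at 0.211, 0.138, 0, 6.98 and 0.418 FPKM in the sham libraries and at 2.02, 2.85, 3.42, 5.64 and 1.82 in UUO. Sham 4 was higher than all 5 UUO libraries, and the other 4 sham libraries were lower than all 5. With Sham 4 included, UUO exceeded sham by 1.19 ± 0.52 on the log2 scale (SE) and the gene was not called (limma, adjusted p = 0.0581). Without it the difference was 1.74 with an adjusted p of 7.9e-05 in limma, and the ratio of means moved from 2.03 to 16.4. The gene was also called with a pseudocount of 0.1 or 0.01 and after rescaling to equal sums (limma, adjusted p = 0.0256, 0.0339 and 0.0373). In the sham group only Sham 4 reached the 0.5 FPKM of the filter. Without Sham 4 the gene thus reached it in UUO libraries alone, which fixed its direction there.

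Because Upk3b and Upk1b are mesothelial as well as urothelial, the 5 other mesothelial genes analysed are given beside them. Gpm6a went the other way from the rest of them: it stood at 63.5 to 83.7 FPKM in sham and fell to 16.2 to 30.9 in UUO (log2 difference -1.47; limma, adjusted p = 1.1e-05). The sum of all 5, mostly Gpm6a, was therefore lower in UUO, at 24.5 to 42.7 FPKM against 69.4 to 87.0. Without Gpm6a the other 4 summed to 2.59 to 3.52 FPKM in 4 sham libraries, 10.4 in Sham 4 and 8.36 to 16.7 in UUO. That sum thus put Sham 4 among the UUO libraries, but 8.18 of its 10.4 FPKM there came from Cldn15. Taken singly, Cldn15 was higher in Sham 4 than in every UUO library, Msln and Nkain4 were lower than in every one, and Wt1 lay among them. The sum without Gpm6a and these 4 genes were chosen after values were seen. Msln, the mesothelin gene, was 1.41 FPKM in Sham 4, at most 0.357 in the other sham libraries and 1.63 to 7.45 in UUO. Cldn15, a claudin, was 8.18 FPKM in Sham 4, 2.02 to 2.67 in the other sham libraries and 4.003 to 7.85 in UUO, and was called higher when Sham 4 was left out but not with it (limma, adjusted p = 0.0513 with it and 0.000259 without). Wt1, a transcription factor, was higher by 0.37 on the log2 scale (limma, adjusted p = 0.0253), and Nkain4, below the filter, had a mean of 0.126 FPKM in sham and 0.934 in UUO. None of the 5 was listed at 0 in every sham library. The part of mesothelium in the values of Upk3b and Upk1b was not tested. With both uroplakins counted, 3 of 6 tested genes of the mesothelial list were higher and 1 was lower, beside 58.5% and 16.1% of all genes. Without Sham 4 5 were higher, beside 60.7% of all genes.

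Psca (chromosome 15, 74714839 to 74717069, plus strand) had its second highest value of all 10 libraries in Sham 4. It stood at 3.75, 0.715, 1.19, 93.7 and 7.03 FPKM in Sham 1 to Sham 5 and at 15.6, 59.8, 45.4, 103 and 40.8 in UUO 1 to UUO 5. Sham 4 lay above 4 of the 5 UUO libraries, and the other 4 sham libraries lay below all 5. The mean was 21.3 ± 40.6 in sham and 52.9 ± 32.2 FPKM in UUO (n = 5 each), a difference of 2.77 ± 0.97 on the log2 scale (SE; limma, adjusted p = 0.0230). Without Sham 4 it was 3.73 (limma, adjusted p = 0.000187), and the ratio of means went from 2.48 to 16.7. The call was lost without Sham 2, without Sham 3 or without UUO 4 (limma, adjusted p = 0.0577, 0.0571 and 0.0544).

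Sprr1a (chromosome 3, 92483952 to 92485895, minus strand) encodes a cross-linked envelope protein and was the most abundant of the 8 genes in every UUO library. It was listed at 3.56, 0.519, 0.848, 25.1 and 7.71 FPKM in the sham libraries and at 61.5, 164, 102, 214 and 101 in UUO. The lowest UUO library, UUO 1, stood above the highest sham library, Sham 4. Sprr1a rose from 7.54 ± 10.2 to 128 ± 60.2 FPKM (n = 5 each), or by 4.59 ± 0.71 on the log2 scale (SE; limma, adjusted p = 0.000145). The exact two-sided permutation test over 252 relabellings gave p = 0.00794, the smallest it allows with 5 against 5. The ratio of means was 17.05, and 40.7 without Sham 4.

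Sprr2f (chromosome 3, 92365187 to 92366442, plus strand), of the same gene cluster, was listed at 0 in all 5 sham libraries, Sham 4 included. Of the 8 genes it alone did not follow Sham 4. Its UUO mean was 50.9 ± 28.8 FPKM (n = 5), with UUO 3 the highest library at 101 and the other 4 between 29.3 and 45.4. UUO 1, lowest for the 4 plaque uroplakins, Psca and Sprr1a, was the third highest for Sprr2f. No fold is given against a group listed at 0. Of the 560 stretches of 50 bases in its transcript 0.714% also occur in another gene, Sprr2e, and none of its stretches of 100 bases do. In the other 7 genes no stretch of 50 bases was shared with another gene.

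**Figure D2:**
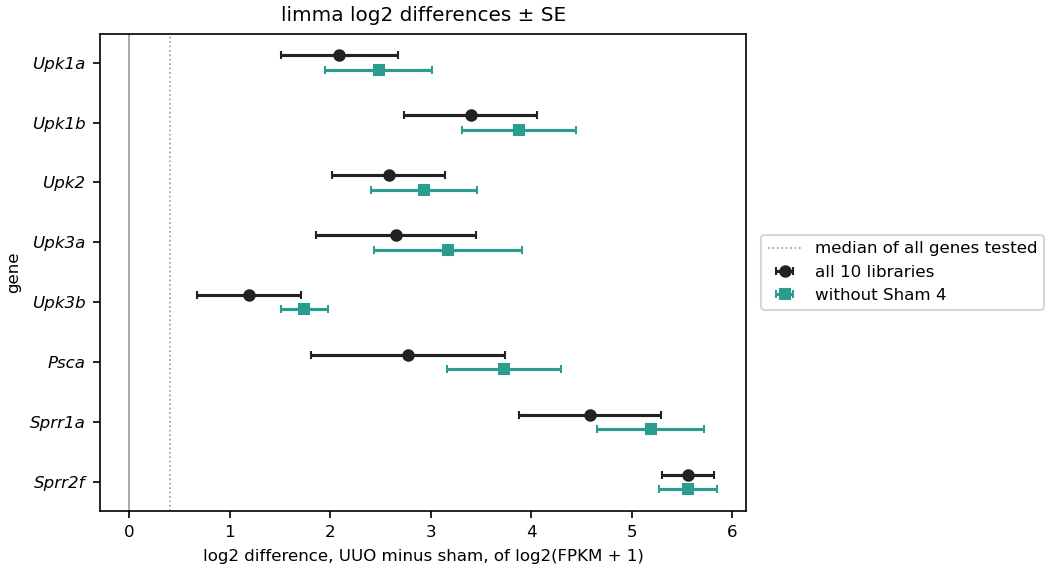
Difference between UUO and sham on the log2(FPKM + 1) scale for each of the 8 genes, with its standard error from limma, for all 10 libraries (black) and without Sham 4 (green). The dotted line is the median of all genes tested, 0.40, and leaving out Sham 4 moved Upk3b from 1.19 to 1.74 and Psca from 2.77 to 3.73, while Sprr2f did not move.

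The make-up of the uroplakin sum was compared between libraries as well. The FPKM of the 5 uroplakins summed to 7.002, 1.57, 2.46, 42.9 and 11.7 in Sham 1 to Sham 5 and to 19.4, 85.9, 99.5, 218 and 62.7 in UUO 1 to UUO 5. Upk1b made up 12.7% to 19.9% of that sum in sham and 31.6% to 36.9% in UUO, without overlap and with Sham 4 at the top of the sham range. Upk1a made up 23.1% to 48.3% in sham and 15.4% to 24.9% in UUO, where Sham 4, at 23.1%, lay among the UUO libraries. The level of Upk1b over that of Upk1a, both per length, was 0.263 to 0.860 in sham and 1.27 to 2.40 in UUO. These shares and that ratio were chosen after values were seen and have no test.

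**Figure D3:**
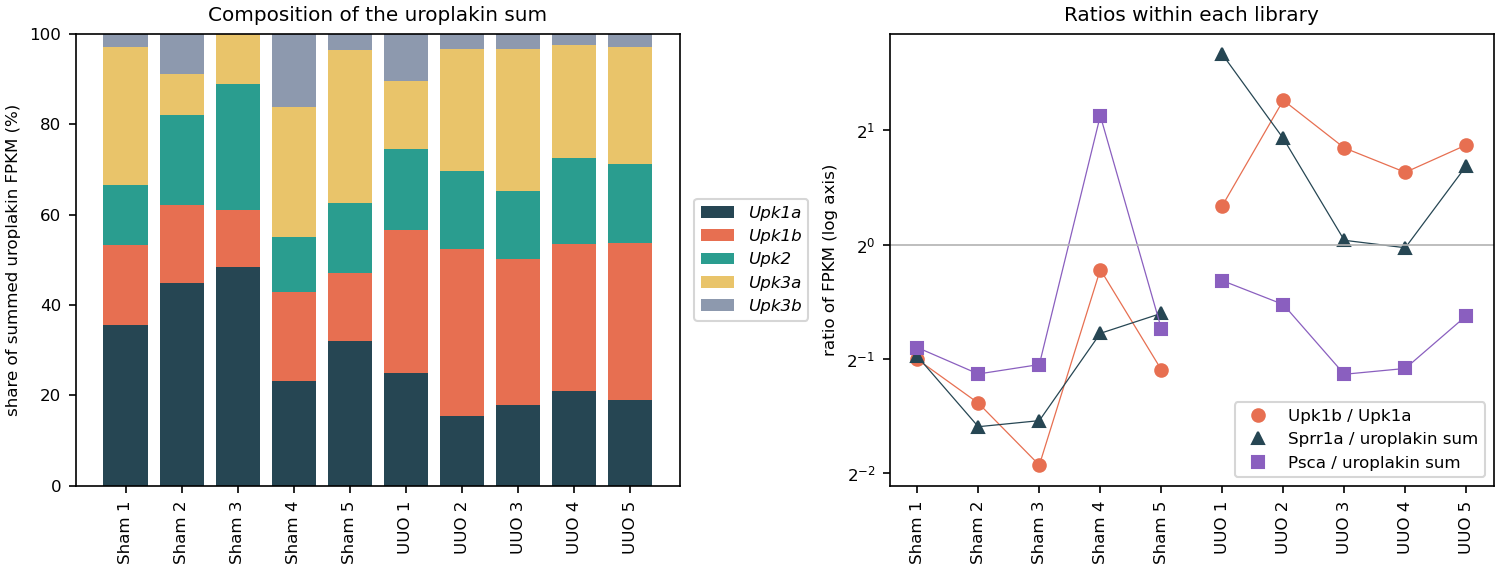
Left, share of each uroplakin in the summed uroplakin FPKM of each library. Right, ratios of FPKM within each library on a log axis; the lines only join the values of 1 ratio, since replicates have no order. Upk1b takes 12.7% to 19.9% in sham and 31.6% to 36.9% in UUO, and Psca stands at 2.19 times the uroplakin sum in Sham 4 against 0.456 to 0.804 in the other 9 libraries.

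Within each library 3 ratios were tested, each with 1 FPKM added to both levels, and p-values were adjusted over the 3. The log2 ratio of Upk1b to its partner Upk3a was -0.32 ± 0.41 in sham and 0.42 ± 0.30 in UUO (SD, n = 5 each; difference 0.74; exact two-sided permutation p = 0.0238, adjusted 0.0238). That difference missed the threshold with 0.1 or 0.01 FPKM added (exact permutation p = 0.0714 and 0.0952). The log2 ratio of Upk1a to its partner Upk2 was 0.64 ± 0.24 in sham and 0.14 ± 0.20 in UUO (n = 5 each; difference -0.49; exact two-sided permutation p = 0.0238, adjusted 0.0238). With 0.1 or 0.01 FPKM added it was -0.82 and -0.90. Adding 1 FPKM draws the ratio of a library with low levels, such as Sham 2 and Sham 3, towards 0.

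The 2 small proline-rich genes together stood below the summed uroplakins in every sham library and above them in every UUO library. The log2 ratio of Sprr1a plus Sprr2f to the summed uroplakins was -0.75 ± 0.13 in sham and 1.17 ± 0.75 in UUO, a difference of 1.93 (n = 5 each; exact two-sided permutation p = 0.00794, adjusted 0.0238). It ran from -0.91 to -0.54 in sham and from 0.25 to 2.33 in UUO, so the libraries did not overlap. Sprr2f, listed at 0 in every sham library, could only raise the UUO side of this ratio. With Sprr1a alone, an alternative chosen after values were seen, the difference was 1.40, from -0.75 ± 0.13 to 0.65 ± 0.68 (n = 5 each; exact two-sided permutation p = 0.00794). Sham 4 stood at -0.75, inside the sham range, although its levels were the highest of that group. In UUO the ratio was highest in UUO 1 and lowest in UUO 4, the libraries with the lowest and the highest uroplakin sum. Sprr1a alone was 0.332 to 0.660 times the uroplakin sum in sham and 0.982 to 3.17 times in UUO. Psca was 2.19 times the uroplakin sum in Sham 4, 0.457 to 0.602 times in the other sham libraries and 0.456 to 0.804 times in UUO.

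Other small proline-rich genes were higher in UUO too. Of a list of 14, 5 were analysed, 4 were tested and all 4 were higher, beside 58.5% of all genes. Sprr2d passed the filter through its UUO libraries alone, and for Sprr2a3 only Sham 4 of the sham libraries reached 0.5 FPKM. The family is a cluster on chromosome 3, and Sprr2a1, Sprr2a2 and Sprr2a3 are near-copies: 96.3% of the 50-base stretches of the Sprr2a1 transcript also occur in other genes. How reads were divided between them is not known, so their separate values are uncertain. Sprr2a2 stood at 0.531, 0.151, 0.235, 5.94 and 2.22 FPKM in sham and 8.06, 97.0, 71.5, 103 and 47.8 in UUO, a log2 difference of 4.54 (limma, adjusted p = 0.00016). Sprr2a1 and Sprr2a3, chosen after values were seen, reached at most 4.54 and 0.505 FPKM in sham, both in Sham 4, and ran from 6.22 to 75.8 and from 1.52 to 26.9 in UUO. In these 3 genes UUO 1 was the lowest and UUO 4 the highest UUO library, as for Sprr1a.

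Sprr2d and Sprr2e, also chosen after values were seen, were listed at 0 in all 5 sham libraries like Sprr2f, their neighbour. Sprr2d stood at 0.614, 2.97, 15.1, 0.689 and 4.14 FPKM in UUO and Sprr2e, which did not pass the filter, at 0.130, 0.250, 1.48, 0.150 and 0.747. UUO 3 was the highest library for both, as for Sprr2f. The promoters of Sprr2d and Sprr2e held 1 AP-1 match, 1 octamer and 1 TATA motif each, the same set as that of Sprr2f. Those of Sprr2a1, Sprr2a2 and Sprr2a3 held none of the motifs searched. The Sprr2a1 and Sprr2a2 windows are identical and that of Sprr2a3 is mostly the same sequence, so they are not separate cases. The Sprr2a2 window lies before the less abundant of its listed transcripts, with a UUO mean of 5.48 FPKM against 242 for the other. Sprr2g was read from the transcript table, where its only listed transcript stood at 0 in 4 sham libraries, at 0.160 in Sham 4 and at 3.81 to 6.47 FPKM in UUO. UUO 4, the library with the highest uroplakins, was the lowest of the 5 for Sprr2g.

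**Figure D4:**
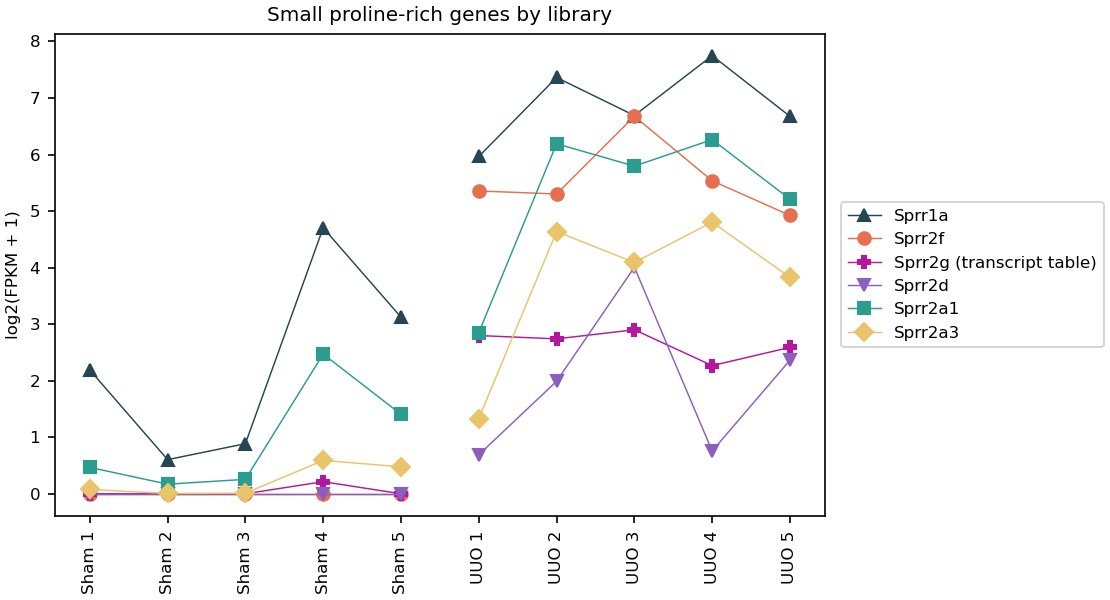
Small proline-rich genes by library as log2(FPKM + 1); lines only join the values of 1 gene. Sprr1a, Sprr2a1 and Sprr2a3 stand above 0 in Sham 4 and are lowest in UUO 1, while Sprr2f and Sprr2d are listed at 0 in every sham library and are highest in UUO 3.

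Among the other genes of the cornified envelope, 10 of 26 were tested, 7 were higher and 1 was lower, beside 58.5% and 16.1% of all genes. With median-of-ratios scaling or quantile normalization 5 were higher, beside 34.8% and 29.6% of all genes. Of the 10, 1 passed the filter through its UUO libraries alone, and for Ivl only Sham 4 of the sham libraries reached 0.5 FPKM. The median log2 difference of the 10 was 1.04. Ivl, which encodes the envelope precursor involucrin and lies in the same chromosome 3 cluster, had the largest difference: at most 0.0783 FPKM in 4 sham libraries, 0.627 in Sham 4 and 6.64 to 25.4 in UUO (log2 difference 3.72; limma, adjusted p = 2.2e-06). Cstb, which encodes the protease inhibitor cystatin B, was the most abundant, at 90.1 to 103 FPKM in sham and 299 to 423 in UUO. Tgm1, which encodes a transglutaminase that cross-links envelope proteins, was the gene that fell, from 17.7 to 26.2 FPKM in sham to 8.27 to 17.2 in UUO (log2 difference -0.71; limma, adjusted p = 0.00293).

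Of the Ly6 family, to which Psca belongs, 13 of 23 genes were tested, 8 were higher and 1 was lower, a share near the 58.5% of all genes called higher. Under quantile normalization 4 were higher and 3 lower, where 29.6% of all genes were higher and 4825 of 13202 were lower. The median log2 difference was 0.57, beside 0.40 over all genes. Ly6d had the largest difference, at 0.194 to 2.41 FPKM in 4 sham libraries, 8.47 in Sham 4 and 4.05 to 88.8 in UUO (log2 difference 4.03; limma, adjusted p = 0.00119). Like the plaque uroplakins it was lowest of the UUO libraries in UUO 1 and highest in UUO 4, and UUO 1 lay below Sham 4. Ly6e, broadly expressed, was 15.2 to 76.8 FPKM in sham and 147 to 241 in UUO. Lypd2 followed Psca in Sham 4 but not in UUO: it stood at 24.5 FPKM in Sham 4, 1.04 to 2.07 in the other sham libraries and 0.195 to 0.919 in UUO. On the log2 scale UUO differed from sham by -1.43 (limma, adjusted p = 0.0490), or by -0.76 when Sham 4 was left out (limma, adjusted p = 0.00226). The Lypd2 call was lost without Sham 1, Sham 5 or any 1 UUO library.

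The tetraspanins other than Upk1a and Upk1b served as relatives of that pair: 25 of 29 were tested, 18 were higher and 2 lower, beside 58.5% and 16.1% of all genes. With median-of-ratios scaling 12 were higher and 5 lower, beside 34.8% of all genes called higher and 4443 of 13202 called lower. Of the 25, 1 passed the filter through its UUO libraries alone. Their median log2 difference was 0.58, beside 2.09 for Upk1a and 3.39 for Upk1b. Cd53, a leukocyte tetraspanin, rose from 0.674 to 1.32 FPKM in sham to 17.7 to 32.7 in UUO, and Cd63, of late endosomes, from 149 to 200 to 221 to 260. Tspan13 fell from 15.9 to 28.5 FPKM in sham to 8.74 to 12.2 in UUO. None of these 3 was low in UUO 1 and high in UUO 4 in the manner of the uroplakins.

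Genes that carry uroplakins to and from the cell surface were called higher in 3 cases and lower in 1 of 12, all tested, where 58.5% and 16.1% of all genes were called. Without Sham 4 or without UUO 4 the lower genes numbered 2. With median-of-ratios scaling 1 was higher, against 34.8% of all genes, and 7 were lower, where 4443 of all 13202 genes were lower. Rab27b, a small GTPase of the vesicles that bring plaques to the surface, stood at 0.315 to 0.371 FPKM in 4 sham libraries, 1.03 in Sham 4 and 0.528, 1.98, 1.55, 2.75 and 1.42 in UUO 1 to UUO 5 (log2 difference 0.80; limma, adjusted p = 0.00642). Of the sham libraries only Sham 4 reached the 0.5 FPKM of the filter for Rab27b. Rab11a, a GTPase of recycling vesicles, was 23.9 to 26.8 FPKM in sham and 29.2 to 35.6 in UUO. Myo5b, a motor of the same vesicles, was lower, at 12.8 to 15.9 FPKM in sham and 7.30 to 13.9 in UUO. Snx31, a sorting nexin that binds uroplakins, was 8.67 to 11.2 FPKM in sham and 4.20, 8.57, 6.91, 19.3 and 6.79 in UUO and was not called (limma, adjusted p = 0.417). Snx31 is not of these 12 but of the list of other urothelial genes, and was chosen after values were seen.

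Markers of the urothelium were counted in the same way. Of 9 urothelial keratins 7 were tested and all 7 were higher, beside 58.5% of all genes. However, 2 of them, Krt14 and Krt17, passed the filter through their UUO libraries alone, which fixed their direction. For Krt20 only Sham 4 of the sham libraries reached the 0.5 FPKM of the filter. The keratin sums were 12.7, 9.47, 9.07, 31.2 and 15.1 FPKM in sham and 155, 359, 250, 326 and 299 in UUO. UUO 1 was again the lowest UUO library, but UUO 2 and not UUO 4 was the highest. Krt19 stood at 0.330 to 9.73 FPKM in sham and 56.9 to 108 in UUO, and Krt20, a keratin of umbrella cells, reached at most 1.16 in sham, in Sham 4, and ran from 22.6 to 63.3 in UUO, with UUO 3 the highest. Krt20 and Sprr2f were thus both highest in UUO 3. That library also had the highest sum of tubular injury markers, 11065 FPKM against 4982 to 8274 in the other UUO libraries. Of 12 transcription factors of the urothelium 11 were tested and 9 were higher, beside 58.5% of all genes. Elf3 rose from 5.79 to 15.9 FPKM in sham to 48.0 to 67.8 in UUO, where UUO 4 was the lowest library. Under quantile normalization 4 of the 11 were higher, beside 29.6% of all genes. Of 20 other urothelial genes 16 were tested, 11 were higher and 1 was lower, or 2 lower without UUO 4, beside 58.5% and 16.1% of all genes. With median-of-ratios scaling and with quantile normalization 9 of the 16 were higher, beside 34.8% and 29.6% of all genes. Their median log2 difference was 1.53. Cldn4, a claudin, and Sfn, the epithelial 14-3-3 sigma, rose to 75.2 to 116 and 60.3 to 77.1 FPKM in UUO from at most 6.36 and 2.68 in the sham libraries other than Sham 4. Among the UUO libraries Cldn4 was lowest in UUO 4, the library with the highest uroplakins, and Sfn was lowest in UUO 3. Aqp3, which urothelium shares with collecting duct, fell from 62.7 to 88.4 FPKM to 11.9 to 33.3. Upk3bl, the Upk3b-like gene beside Upk3b, was chosen after values were seen and did not pass the filter. It stood at 0 to 0.268 FPKM in sham and 1.26, 1.26, 0.892, 0.483 and 1.66 in UUO. It was lowest in UUO 4, the library with the most Upk3b of that group.

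Markers of smooth muscle, tubule cells and adipocytes moved as follows, where 58.5% of all genes were called higher and 16.1% lower. Without Sham 4 60.7% of all genes were called higher. All 9 tested smooth muscle genes were higher, 1 of them having passed the filter only through UUO, with sums of 35.7 to 53.9 FPKM in sham and 167 to 330 in UUO, and UUO 2 was highest. Tagln, which encodes the smooth muscle protein transgelin, stood at 6.11 to 9.71 FPKM in sham and 60.9 to 128 in UUO. Inner medulla genes summed to 92.8 to 138 FPKM in 4 sham libraries, 459 in Sham 4 and 100 to 179 in UUO, and 2 of 8 were lower and 0 higher, or 2 lower and 2 higher without Sham 4. At an adjusted p below 0.05 in limma 1 principal cell gene of 9 was higher and 5 were lower. Principal cell sums were 250 to 274 FPKM in 4 sham libraries, 675 in Sham 4 and 93.2 to 183 in UUO. Of 9 intercalated cell genes 5 were lower, and all 9 with median-of-ratios scaling, where 4443 of 13202 genes were lower. Intercalated cell sums ran from 107 to 145 FPKM in sham and from 67.0 to 114 in UUO. All 10 tubular injury genes were higher, of which 2 passed the filter only through UUO. Tubular injury sums were 346 to 523 FPKM in sham and 4982 to 11065 in UUO, with UUO 3 the highest and UUO 4 the lowest of that group. Of 7 adipocyte genes 3 were tested and 0 were called, 2 being higher without Sham 4; their sums were 7.80 to 19.1 FPKM in 4 sham libraries, 288 in Sham 4 and 22.7 to 109 in UUO. The inner medulla and adipocyte sums of Sham 4 were above those of every UUO library, whereas its uroplakin sum, at 42.9 FPKM, was above that of UUO 1 alone. The part of tissue make-up in the differences of the 8 genes was not tested.

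**Figure D5:**
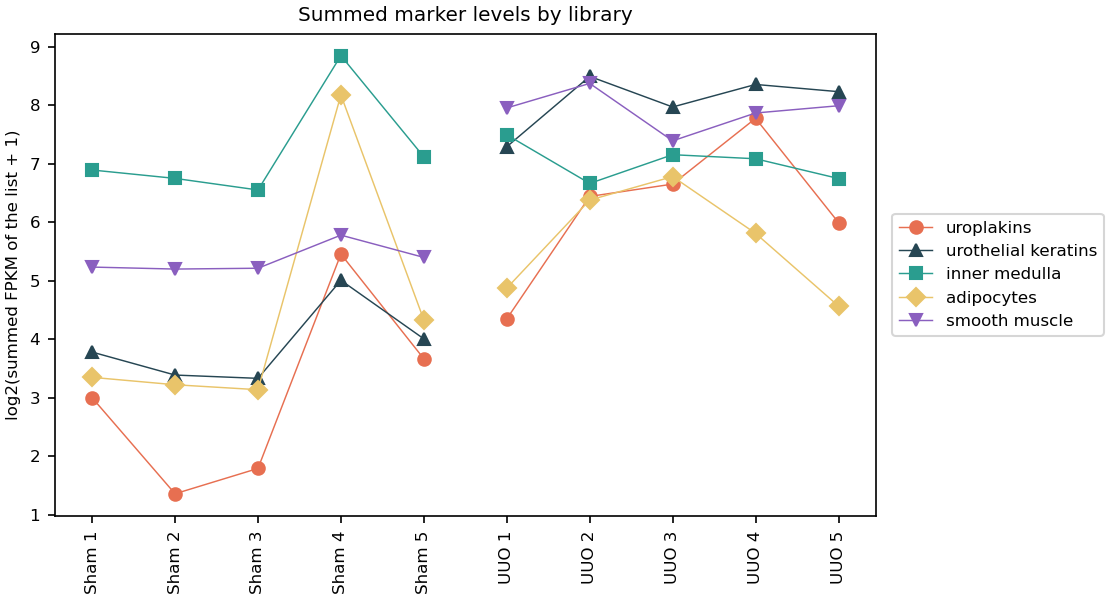
Summed FPKM of the uroplakins and of 4 marker lists in each library, as log2(sum + 1); lines only join the values of 1 list. Sham 4 is the highest sham library for all 5 sums, and its inner medulla and adipocyte sums, 459 and 288 FPKM, are above those of every UUO library.

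The genes whose levels varied most like the uroplakins were sought by the distance between profiles. Each gene's log2 level was taken as a deviation from its own group mean in units of its standard deviation, and the root mean square distance to the mean uroplakin profile was computed over 10 libraries that all genes share. It was 0.221 for Bmp3, 0.260 for Sptssb, 0.360 for Foxa1, 0.370 for Ctse and 0.389 for Gsdmc2, against a median of 1.30 over 12054 genes. Psca and Sprr1a stood at 0.355 and 0.438, Upk3b at 0.493 and Sprr2f at 1.25, near that median. Without Sham 4 the nearest 5 were Bmp3, Fxyd3, Sptssb, Cers3 and Adh7, so Bmp3 and Sptssb remained. Bmp3, which encodes a bone morphogenetic protein, stood at 0.124 to 0.431 FPKM in 4 sham libraries, 1.31 in Sham 4 and 1.07, 1.60, 1.70, 2.59 and 1.64 in UUO. Sptssb, a subunit of the enzyme that begins sphingolipid synthesis, was at most 0.704 FPKM in 4 sham libraries, 16.1 in Sham 4 and 0.724, 12.6, 21.5, 33.7 and 6.79 in UUO. Foxa1 encodes a transcription factor of urothelium, and it reached 1.13 FPKM in Sham 4 and 0.947 to 4.54 in UUO. Ctse, the gene of the protease cathepsin E, ran from 0.0247 to 1.73 FPKM in sham and 1.74 to 4.87 in UUO. Gsdmc2, of the gasdermin family, was 11.2 FPKM in Sham 4, at most 2.16 in the other sham libraries and 4.01 to 24.1 in UUO. This likeness describes 10 libraries and carries no test.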

How the data were processed

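Per the labels' protocols, total RNA of whole left kidneys was made into stranded libraries and sequenced on an Illumina instrument. The submitters' processing notes name cutadapt, HISAT2, StringTie and GRCm38, and give neither versions nor an annotation release. The authors deposited a gene and a transcript table of FPKM, whose header names no unit: FPKM was inferred from the tools and the column sums. The table holds 13920 genes, and the 8 described were matched by symbol. All 10 columns of values were mapped to samples by the codes in the titles.

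Values were analysed as log2(FPKM + 1), a scale that understates changes of low genes, and ratios of means are of FPKM. The 13202 genes that reached 0.5 FPKM in 5 or more libraries were compared with limma 3.58.1 under R 4.3.3 (eBayes with a variance trend) with Benjamini-Hochberg adjustment over all of them, called below 0.05. Ratios within libraries were tested by exact permutation (scipy 1.17.1, pandas 2.3.3 and numpy 2.4.6 under Python 3.11.15; figures by matplotlib 3.10.9). The fit was tested on simulated data. Alternatives were other pseudocounts, filters and scalings, no variance trend, a replicate block and leaving out each library. The 8 genes, the lists and the rule for named genes were chosen with earlier results of these data known.

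Besides the 8, the rule named from each of 16 further lists the called gene with the largest difference, the called gene with the highest mean and, where calls went both ways, the largest in the rarer direction, or the most abundant tested gene where none was called. It also named the 5 genes nearest the uroplakin profile among those with a mean of at least 1 FPKM. For lists of nephron cells, injury and adipocytes sums are printed in place of genes. Motifs were counted in RefSeq promoters, and shared stretches in GENCODE transcripts.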

Additional observations from a re-analysis of the deposited data

Results flagged for a closer look

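In several groups of 5 libraries the gap between an extreme library and its nearest neighbour, as a share of the group's range, was above Dixon's critical value, which chance reaches in about 1 of 20 groups. Of 110 groups checked here, 27 were so, and 23 of these were sham groups in which Sham 4 was the highest. The rate of 1 in 20 holds for independent groups of normally distributed values. These groups are FPKM of the same libraries, and some genes were named for following the uroplakins. The 27 can therefore not be set against that rate. Among the 8 genes, Sham 4 stood at 8.52 FPKM for Upk1b against 1.76 in the next sham library, at 6.98 against 0.418 for Upk3b and at 93.7 against 7.03 for Psca. For the other 3 uroplakins and Sprr1a the gap was below that value.

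Among other urothelial genes Sham 4 stood apart for Krt19 (9.73 FPKM, next 2.81), Krt20 (1.16, next 0.176), Elf3 (15.9, next 7.37), Foxa1 (1.13, next 0.296), Cldn4 (23.9, next 6.36), Sfn (6.31, next 2.68), Aqp3 (88.4, next 68.3) and Gsdmc2 (11.2, next 2.16). It stood apart as well for Ivl (0.627 FPKM, next 0.0783), Ly6d (8.47, next 2.41), Lypd2 (24.5, next 2.07), Rab27b (1.03, next 0.371), Bmp3 (1.31, next 0.431), Sptssb (16.1, next 0.704), Msln (1.41, next 0.357) and Cldn15 (8.18, next 2.67). Summed FPKM of marker lists was 31.2 in Sham 4 against 15.1 in the next sham library for urothelial keratins, 675 against 274 for principal cells, 459 against 138 for inner medulla and 288 against 19.1 for adipocytes.

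In the UUO group 3 libraries stood apart, each for other genes. UUO 3 was highest for Sprr2f, at 101 FPKM against 45.4 in the next library, and for Sprr2d, at 15.1 against 4.14. UUO 4 was highest for Snx31 at 19.3 FPKM (next 8.57), and UUO 5 was lowest for Tspan13 at 8.74 (next 11.6).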

How the results depend on the processing

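The 4 plaque uroplakins and Sprr1a kept their direction and call under every alternative that gave a value, and Upk3b and Psca kept their direction. Sprr2f was called wherever it had a value, but its sham values of 0 fixed its direction. Leaving out each library in turn gave log2 differences of 1.70 to 2.48 for Upk1a, 3.03 to 3.88 for Upk1b, 2.19 to 2.997 for Upk2, 2.28 to 3.23 for Upk3a, 4.16 to 5.19 for Sprr1a, 0.99 to 1.74 for Upk3b and 2.28 to 3.73 for Psca, whose call was lost without Sham 2 (2.28), Sham 3 (2.37) or UUO 4 (2.48). Sprr2f fell below the filter without any 1 UUO library and had no value there; with the tested genes kept, an alternative chosen after seeing the data, it ran from 5.28 to 5.72. Upk3b became called with a pseudocount of 0.1 (2.62) or 0.01 (3.54), after rescaling to equal sums (1.29) and without Sham 4. The count of the 8 genes called ran from 5 to 8 when libraries were left out, the lowest without UUO 4. Sprr2f could not be counted there, as it was not tested when a UUO library was left out. With the tested genes kept the count ran from 6 to 8, beside 7343 to 8011 of all 13202 genes called higher.

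Over all genes, 7727 higher and 2130 lower became 4594 and 4443 with median-of-ratios scaling and 3908 and 4825 under quantile normalization. The difference in the ratio of Upk1b to Upk3a was 0.79 with 0.1 FPKM added and 0.76 with 0.01. Ratios without each library ran from 1.64 to 2.16 for small proline-rich genes against uroplakins, 0.61 to 0.86 for Upk1b against Upk3a and -0.56 to -0.42 for Upk1a against Upk2.

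The groups share replicate numbers, but same-numbered libraries did not deviate together: 1 of 5 pairs correlated above 0.1 (range -0.26 to 0.15), and 1 of 5 sham libraries correlated best with its own number. With the replicate block Upk3b was called (log2 difference 1.19; limma, adjusted p = 0.0145). The 3 ratios with the block, 1.93, 0.74 and -0.49, gave exact sign-flip p-values of 0.0625, 0.125 and 0.0625, where 0.0625 is the smallest that 5 pairs allow.

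With FPKM alone the counting error of low values, such as the sham values of Upk3b, is unknown.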

Other observations

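Keratins of the basal layer are named here after values were seen. Krt5, the keratin of basal urothelial cells, stood at 0.443, 0, 0.0643, 2.87 and 1.13 FPKM in Sham 1 to Sham 5 and at 11.4, 68.4, 44.9, 69.7 and 46.8 in UUO 1 to UUO 5 (log2 difference 4.67; limma, adjusted p = 1.2e-05). Divided by the summed uroplakins, it was 0 to 0.0969 in sham, with Sham 4 at 0.0669, and 0.320 to 0.796 in UUO. Krt14, the partner of Krt5 in basal cells, was at most 0.241 FPKM in sham and 13.4 to 54.8 in UUO, and Sham 4, at 0.178, was not the highest sham library. Krt17, a keratin of stressed stratified epithelium, was listed at 0 in every sham library and stood at 6.71, 11.5, 2.20, 3.50 and 21.8 FPKM in UUO, with UUO 5 the highest. Krt14 and Krt17 passed the filter through their UUO libraries alone, which fixed their direction. UUO 3, the highest library for Sprr2f and Krt20, was the lowest for Krt14 and Krt17.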
